A study of Mus musculus with 4 samples.

Results

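The genes Ccl2, Ccl3, Ccl4, Ccl6, Ccl7, Ccl8, Ccl9, Ccl12 and Ccl24, 9 chemokines of the CC family, and Ccr2, 1 receptor of that family, were followed through single cells of the injured mouse jejunum. These 10 genes were taken by symbol from the 32286 features that were counted. The rule uses no measured value, although the list was drawn up with earlier results of these data known. CC chemokines are small secreted proteins with a pair of adjacent cysteines, and they guide leukocytes by binding G protein-coupled receptors. Ccr2 is the receptor with which classical monocytes leave the bone marrow and enter injured tissue, and Ccl2, Ccl7 and Ccl12 are ligands of it. Ccl3, Ccl6 and Ccl9 act through Ccr1, Ccl4 is a close relative of Ccl3, and Ccl24 acts on Ccr3, which is best known from eosinophils. In the gut, monocytes from the blood replace most macrophages throughout life and enter in larger numbers after injury. Recruitment itself was not measured, so that the values below are RNA levels of the ligands and of the receptor.

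The samples were 4 mice, each of them 1 library and 1 replicate, with 2 mice a group. Control mice carried Foxc1fl/fl;Foxc2fl/fl, and EC-Foxc-DKO mice carried Cdh5-CreERT2;Foxc1fl/fl;Foxc2fl/fl, in which the endothelial Cdh5 promoter drives a Cre recombinase that tamoxifen activates. Both floxed alleles were thus shared by all mice, and per the methods the mice were adult males that received tamoxifen by oral gavage. All 4 underwent ischemia and reperfusion (I/R) of the small intestine, in which its blood flow is stopped and restored, and cells of the distal jejunum were dissociated with enzymes at 18.5 h. An uninjured sample was not analysed here, so that no level below can be read as induced by injury. The comparison of genotypes asks whether chemokine levels differ where endothelial cells lack both Foxc genes.

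Libraries held 3623 to 7347 barcodes and 15557181 to 72046346 unique molecular identifiers (UMIs), each of which marks 1 captured RNA molecule. Barcodes whose mitochondrial genes took more than 10% of the UMIs were set aside, which left 5615 of 22679 barcodes (24.8%). Control mouse 2 stood apart, with a median mitochondrial share of 54.0% against at most 25.8% in the other mice and only 348 kept cells against 1079 to 2742. In endothelial-like cells, Foxc1 had 2, 9, 1 and 0 UMIs in control mouse 1, control mouse 2, EC-Foxc-DKO mouse 1 and EC-Foxc-DKO mouse 2, and Foxc2 had 0 in each, so that these few 3′ tags, which may also lie outside the deleted part, were too few to check the deletion. The Cre sequence had 0, 0, 3 and 3 UMIs in the kept cells of the same 4 mice, and both mice with a UMI were labelled EC-Foxc-DKO. Among all barcodes, 51 occurred in 2 libraries, and 2 did so among the kept cells.

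Of the 10 genes, 8 lie on chromosome 11 of GRCm38, the build of the files, in 2 groups. Ccl2 (ENSMUSG00000035385, 82035571 to 82037453), Ccl7 (ENSMUSG00000035373, 82045712 to 82047525), Ccl12 (ENSMUSG00000035352, 82101845 to 82103400) and Ccl8 (ENSMUSG00000009185, 82115185 to 82116799) follow each other on the plus strand within 81.2 kb. The other group begins 1456.1 kb farther on and spans 91.8 kb, with Ccl9 (ENSMUSG00000019122, 83572919 to 83578636), Ccl6 (ENSMUSG00000018927, 83587882 to 83593087) and Ccl3 (ENSMUSG00000000982, 83647844 to 83649355) on the minus strand and Ccl4 (ENSMUSG00000018930, 83662584 to 83664683) on the plus strand. Ccl24 (ENSMUSG00000004814) lies on chromosome 5 at 135569937 to 135573049, and Ccr2 (ENSMUSG00000049103) on chromosome 9 at 124101950 to 124113557. Transcripts of Ccl9 and Ccl6 share exact runs of up to 73 and 48 bases with another gene, so that a small part of their reads may be assigned with less certainty. Ccl2 and Ccl6 overlap a gene on the opposite strand, Gm17268 and E230016K23Rik.

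RefSeq promoters, from 250 bases before to 50 bases after the start of a gene on GRCm38.p6, matched 6 of the 10 genes. Promoters are printed for 4 of these 6, a pair from each group on chromosome 11, which by edgeR differed in opposite directions between the monocyte-like and macrophage-like cells described below. Ccl12 (chr11:82101595-82101894, plus strand) and Ccl8 (chr11:82114935-82115234, plus strand) were higher in macrophage-like cells, whereas Ccl6 (chr11:83593038-83593337, minus strand) and Ccl9 (chr11:83578587-83578886, minus strand) were higher in monocyte-like cells. For Ccl8 this holds with the limit given below. The groups as a whole did not divide by direction, since Ccl3 and Ccl4 lie with Ccl6 and Ccl9 but were lower in monocyte-like cells, Ccl3 without a call. Capitals mark matches to 3 motifs that were searched on both strands, namely TATAAA, the AP-1 motif TGANTCA and the kappa B motif of NF-kappa B.
Ccl12: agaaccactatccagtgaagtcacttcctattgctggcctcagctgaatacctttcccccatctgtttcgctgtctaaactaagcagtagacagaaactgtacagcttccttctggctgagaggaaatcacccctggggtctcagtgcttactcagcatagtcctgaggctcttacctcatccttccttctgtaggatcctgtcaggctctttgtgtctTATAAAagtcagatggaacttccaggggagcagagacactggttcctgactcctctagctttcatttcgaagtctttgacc
Ccl8: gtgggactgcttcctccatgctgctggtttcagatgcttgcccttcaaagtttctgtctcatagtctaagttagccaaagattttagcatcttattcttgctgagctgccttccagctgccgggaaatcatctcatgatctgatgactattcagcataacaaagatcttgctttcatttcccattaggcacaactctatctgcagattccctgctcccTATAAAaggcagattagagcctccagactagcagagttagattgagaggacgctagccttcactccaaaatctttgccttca
Ccl6: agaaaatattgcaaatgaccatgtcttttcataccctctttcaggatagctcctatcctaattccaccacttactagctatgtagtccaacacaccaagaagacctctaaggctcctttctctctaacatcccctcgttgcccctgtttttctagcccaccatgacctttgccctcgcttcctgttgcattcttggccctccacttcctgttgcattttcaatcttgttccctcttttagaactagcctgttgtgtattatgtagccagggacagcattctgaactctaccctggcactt
Ccl9: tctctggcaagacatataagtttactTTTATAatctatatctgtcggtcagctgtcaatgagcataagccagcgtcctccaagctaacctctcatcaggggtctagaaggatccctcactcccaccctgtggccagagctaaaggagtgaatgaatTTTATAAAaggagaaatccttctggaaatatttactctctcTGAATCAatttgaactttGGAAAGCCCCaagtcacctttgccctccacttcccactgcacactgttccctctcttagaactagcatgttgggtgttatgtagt
In the promoters of Ccl12 and Ccl8, the match was TATAAA, and it began 31 and 32 bases before the start. The promoter of Ccl9 held a kappa B match 35 bases before the start on the opposite strand and an AP-1 match 53 bases before it, which reads as a match on both strands, along with 3 TATAAA matches at 224, 94 and 92 bases, of which the last 2 overlap each other on opposite strands. None of the 3 motifs matched in the promoter of Ccl6, nor in those of Ccl3 and Ccr2, which are not printed. Over all 32851 RefSeq promoters of this length, 13.6% held TATAAA, 7.81% the AP-1 motif and 8.46% the kappa B motif, so that a match by itself is common. The promoters of Ccl2, Ccl4, Ccl7 and Ccl24 were not analysed here.

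Most of the RNA of these genes lay in 1 small class of cells. Kept cells were clustered without any CC chemokine or CC receptor gene and named from marker genes, so that no gene described here placed a cell in its class. The monocyte/macrophage-like class was a single cluster of 294 cells (5.24% of the kept cells, 3.56% of their UMIs), in which all 11 of its markers were detected and Arg1, Fcgr1, F13a1, C3ar1 and Msr1 led. It held 98.6% of the UMIs of Ccl12, 97.8% of Ccl7, 96.8% of Ccl2, 95.3% of Ccl24, 93.8% of Ccl9, 92.8% of Ccl6 and 90.0% of Ccr2. Ccl8 followed with 81.6% of only 423 UMIs, and another 16.5% of them lay in unnamed cells. Ccl3 and Ccl4 were spread more widely, with 59.8% and 44.5% in this class and 27.0% and 38.0% in T/NK-like cells.

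**Figure D1:**
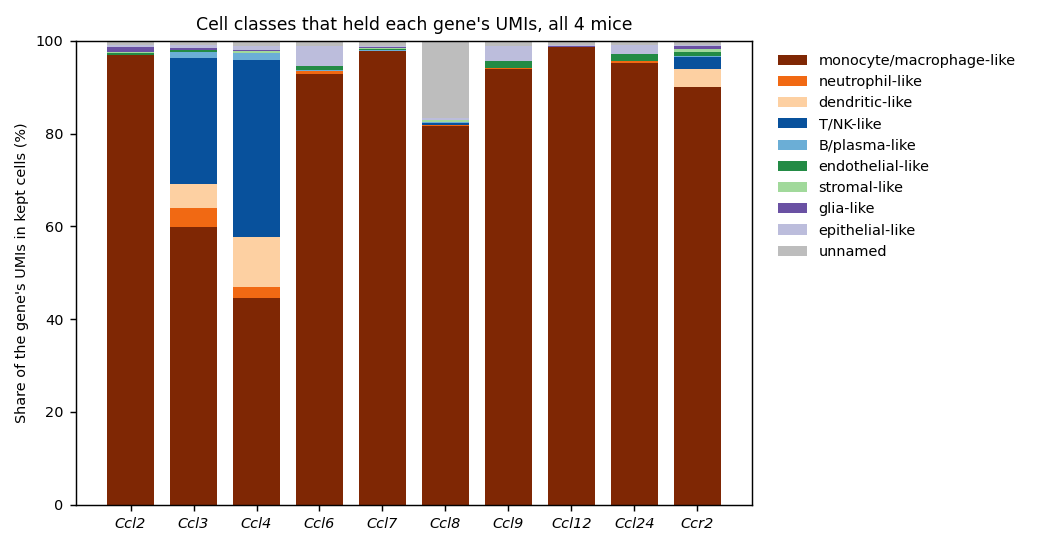
Share of each gene's UMIs (%, y axis) that lay in each cell class, for the 10 genes on the x axis, over the kept cells of all 4 mice. The monocyte/macrophage-like class fills over 90% of the bar for 7 genes, 81.6% for Ccl8, 59.8% for Ccl3 and 44.5% for Ccl4.

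A level in CPM is the number of UMIs that a gene would have among 1000000 from that class and mouse, and levels follow the order control mouse 1, control mouse 2, EC-Foxc-DKO mouse 1 and EC-Foxc-DKO mouse 2. The 4 mice gave 70, 36, 93 and 95 monocyte/macrophage-like cells. Among the ligands of Ccr2, Ccl2, the classical monocyte chemoattractant, stood at 4517, 2323, 3299.8 and 4475 CPM in these cells. Ccl7, which binds Ccr2 as well as other receptors, stood at 3115, 2618, 2341 and 4658 CPM. Ccl12, a ligand of Ccr2 in mice, stood at 1501, 1821, 968 and 2628 CPM. EC-Foxc-DKO mouse 2 was highest for Ccl7 and Ccl12 and control mouse 1 for Ccl2, and the ranges of the genotypes overlapped for all 3 genes. Ccl8, which lies next to Ccl12 in the genome, stood at 2.25, 196, 101 and 244 CPM, so that it was nearly missing from control mouse 1 and differed more between the 2 control mice than between genotypes.

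Ccl6 and Ccl9, neighbours in the genome that both act through Ccr1, stood at 4823, 2215, 4905 and 6338 CPM and at 1947, 566, 1585 and 2378 CPM. Both were lowest in control mouse 2 and highest in EC-Foxc-DKO mouse 2, and for Ccl6 control mouse 1 lay just below EC-Foxc-DKO mouse 1, while for Ccl9 it lay between the EC-Foxc-DKO mice. Ccl3 stood at 531, 1057, 379 and 850.3 CPM, and Ccl4, which lies beside it, at 1389.5, 1976, 446 and 1693 CPM. These 2 genes shared the order of the mice, with control mouse 2 highest and EC-Foxc-DKO mouse 1 lowest. Ccl24 stood at 643, 289, 1149.7 and 1003 CPM, so that both EC-Foxc-DKO mice lay well above both control mice. The subclusters behind these values differed between the mice, as described below. The receptor Ccr2 stood at 868, 449.5, 750.0 and 272 CPM, with 1 mouse of each genotype at the high and at the low end.

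Most of these cells carried RNA of several ligands at once. A UMI of Ccl6 was found in 90.5% of the 294 cells, of Ccl9 in 88.4%, of Ccl2 in 71.8%, of Ccr2 in 66.0%, of Ccl12 in 62.9%, of Ccl7 in 58.2%, of Ccl4 in 54.1%, of Ccl3 in 50.0%, of Ccl24 in 37.8% and of Ccl8 in 10.5%. After each cell was thinned to 1000 UMIs, the shares ran from 71.4% for Ccl6 and 57.8% for Ccl2 down to 21.5% for Ccl24 and 4.48% for Ccl8. In T/NK-like cells, which are not known to use most of these genes, 0.735% of cells had a UMI of Ccl2, 0.551% of Ccl6, 0% of Ccl9 and 4.41% of Ccr2, at a median depth of 4603.5 UMIs against 9531 in the monocyte/macrophage-like class. A median cell held 6 of the 9 ligands, with medians of 5, 5, 5 and 6 in the 4 mice, and 203 cells (69.0%) held 5 or more. Ccr2 and its ligand Ccl2 occurred together in 137 cells, Ccr2 without Ccl2 in 57, Ccl2 without Ccr2 in 74 and neither in 26. The 30 cells with the most ligand UMIs, held 40.5% of all its ligand UMIs.

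Levels in other classes were compared with the monocyte/macrophage-like class in 1 edgeR quasi-likelihood fit over 9952 genes, on counts summed per mouse and class with the mouse as a block. A gene was called at a Benjamini-Hochberg adjusted p under 0.05. All 10 genes were higher in the monocyte/macrophage-like class than in B/plasma-like cells, where 20.6% of all genes tested were higher, and likewise against endothelial-like (20% of all genes), epithelial-like (25.9%), glia-like (17.8%) and stromal-like cells (18.5%). Against T/NK-like cells 8 of the 10 were higher (21% of all genes), and against neutrophil-like cells 7 were (12.3%), and none of the 10 was lower in any contrast, where 9.1% (neutrophil-like), 19.6% (glia-like), 22.7% (endothelial-like), 24.4% (stromal-like), 31.1% (epithelial-like), 16.7% (B/plasma-like) and 18.7% (T/NK-like) of all genes were lower. The 5 pairs without a call were Ccl3 and Ccl4 against T/NK-like cells and Ccl3, Ccl4 and Ccl8 against neutrophil-like cells. Several of the 10 genes, such as Ccl8 and Ccl12, had few or no UMIs in most other classes. They passed the filter on low counts through the monocyte/macrophage-like sums, so that a lower level could not have been found. For such pairs the direction is no separate result. Neutrophil-like sums entered from control mouse 1 and EC-Foxc-DKO mouse 1 only, the mice with at least 10 such cells. DESeq2 called 60 of the 70 pairs where edgeR called 65, with 3 of 10 against neutrophil-like and 9 of 10 against endothelial-like cells. With DESeq2's size factors in edgeR, the split of higher to lower calls over all genes moved from 1225 and 906 to 857 and 1128 against neutrophil-like cells, from 1987 and 2257 to 1543 and 2673 against endothelial-like, from 1772 and 1947 to 1249 and 2418 against glia-like and from 1838 and 2431 to 1368 and 2921 against stromal-like cells. The median log2 difference of all genes against neutrophil-like cells was 0.56, and 0.27 with those size factors.

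**Figure D2:**
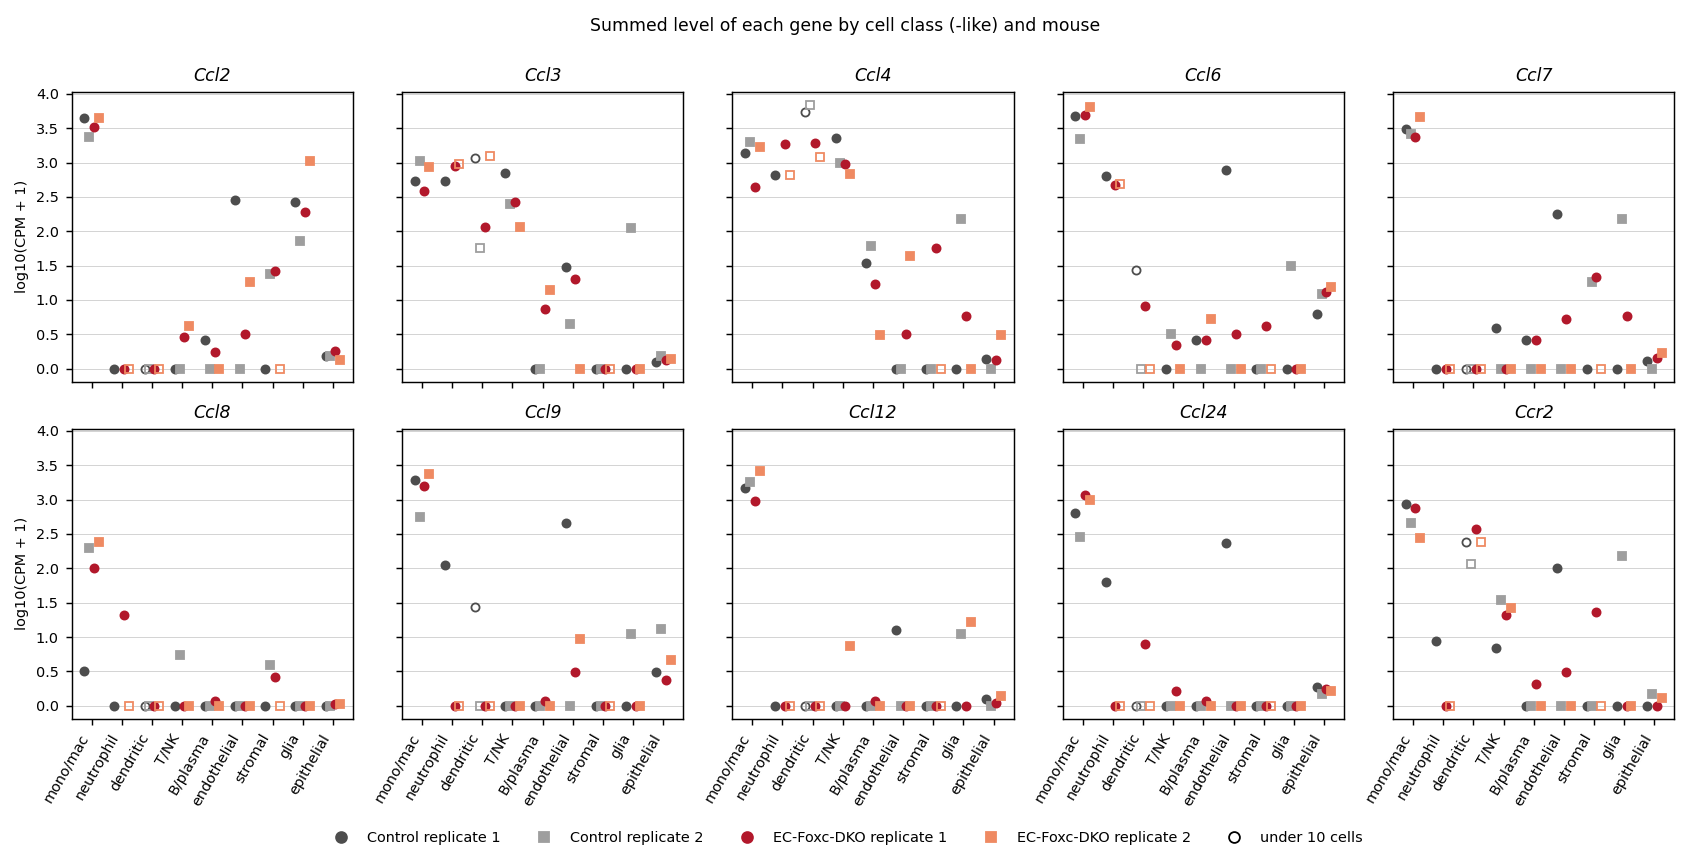
Level of each gene, as log10(CPM + 1) on the y axis, in the cell classes on the x axis, with 1 symbol a mouse and open symbols for sums of under 10 cells. The monocyte/macrophage-like class is the highest column for Ccl2, Ccl7, Ccl12, Ccl24, Ccl9 and Ccl6, whereas for Ccl3 the T/NK-like, neutrophil-like and dendritic-like columns reach the same range, as do the first 2 for Ccl4, for which dendritic-like cells reach 6916 CPM.

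Ccl3 and Ccl4 were shared by several kinds of leukocytes. In T/NK-like cells (70, 77, 312 and 85 cells), Ccl3 stood at 703, 248, 269 and 116 CPM and Ccl4 at 2312, 972, 965 and 677 CPM. Control mouse 1 was highest and EC-Foxc-DKO mouse 2 lowest for both genes. Relative to T/NK-like cells, the monocyte/macrophage-like level of Ccl3 was higher by 1.21 ± 0.50 (log2, SE) at an edgeR adjusted p of 0.0546, and that of Ccl4 by 0.13 ± 0.68 at an adjusted p of 0.951. Within the T/NK-like cells, the 409 cells with markers of CD8 T, gamma delta T and NK cells held 2824 of the 3008 Ccl4 UMIs, at 1459 CPM, and the 135 cells with markers of CD4 T cells held 184, at 233 CPM. Ccr2, which memory and helper T cells can carry, stood at only 5.81, 33.2, 19.8 and 25.8 CPM in T/NK-like cells, 4.81 ± 0.69 (log2, SE) below the monocyte/macrophage-like class at an edgeR adjusted p of 1.15e-06.

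Neutrophil-like cells, with all 9 of their markers detected, came from control mouse 1 (31 cells), EC-Foxc-DKO mouse 1 (20) and EC-Foxc-DKO mouse 2 (6), while control mouse 2 had none. In these 3 mice Ccl3 stood at 534, 900.5 and 968 CPM, Ccl4 at 652, 1879 and 665 CPM and Ccl6 at 636, 469.8 and 484 CPM. The level of Ccl3 thus lay within the range of the monocyte/macrophage-like class, at a log2 difference of -0.02 ± 0.66 (edgeR, adjusted p 1), as did that of Ccl4, at -0.15 ± 0.85 (adjusted p 0.973). Ccl6 was the third of these genes that neutrophil-like cells carried in many cells (49.1%), yet its level was lower than in the monocyte/macrophage-like class by 3.66 ± 1.09 (log2, SE, edgeR adjusted p 0.0149). Ccl2, Ccl7 and Ccl12 had 0 UMIs in the 57 neutrophil-like cells. Against the limit that 3 UMIs over the group would give, Ccl2 was at least 246-fold and Ccl12 at least 102-fold higher in the monocyte/macrophage-like class. These limits, like the intervals below, cover counting error only.

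Dendritic-like cells were few (8, 2, 16 and 7) and were led by Siglech, Cox6a2 and Cd209d, with all 8 markers of plasmacytoid dendritic cells detected, so that they had too few cells a mouse for the test. Ccl4 stood at 5407, 6916 and 1952 CPM in the first 3 mice and at 1206 CPM in EC-Foxc-DKO mouse 2, and 84.8% of the cells held a UMI of it. Ccr2, at 240.3, 113, 379 and 241 CPM, was carried by 63.6% of these cells, against 66.0% of monocyte/macrophage-like cells. Ccl2, Ccl7, Ccl8 and Ccl12 had 0 UMIs here, which puts the monocyte/macrophage-like level at least 354-fold, 288-fold, 10.5-fold and 146-fold higher.

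Stromal, endothelial and glial cells, which can release Ccl2 in inflamed tissue, held little RNA of these genes in the kept cells. In stromal-like cells (15, 39, 72 and 3 cells, led by Dcn, Myh11 and Lum), Ccl2 stood at 0, 22.8, 25.7 and 0 CPM and Ccl7 at 0, 17.1, 20.9 and 0 CPM. The 24 Ccl2 UMIs and 19 Ccl7 UMIs came from the 2 mice with most stromal-like cells. In control mouse 2, 1 cell with 44268 UMIs held 8 Ccl2 and 4 Ccl7 UMIs, 12 of the 15 UMIs of the 10 genes. In EC-Foxc-DKO mouse 1, 1 cell that doublet score removed held 53 of the 81, among them 0 of Ccl2 and 4 of Ccl7. Ccl3, Ccl9, Ccl12 and Ccl24 had 0 UMIs there, at least 212-fold, 617-fold, 554-fold and 310.5-fold below the monocyte/macrophage-like class. Relative to stromal-like cells, the monocyte/macrophage-like level of Ccl2 was higher by 7.20 ± 0.90 (log2, SE, edgeR adjusted p 1.41e-07).

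Endothelial-like cells (36, 39, 90 and 24 cells) are the cells in which Foxc1 and Foxc2 were deleted. In control mouse 1, Ccl6 stood at 774 CPM, Ccl9 at 463, Ccl2 at 281, Ccl24 at 235 and Ccl7 at 176, far above the other 3 mice, in which none of these 5 genes passed 17.0 CPM. However, 352 of the 353 UMIs of the 10 genes in this mouse (99.7%) came from 1 cell, which held 23247 UMIs, 8 of the 10 genes and 10 of the 11 monocyte/macrophage markers and was among the cells removed by doublet score. The other cells of that mouse held 1 UMI of the 10 genes, 6.79 CPM in all. The summed level of the monocyte/macrophage markers in endothelial-like cells was 2234, 122, 133 and 221 CPM.

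Glia-like cells (17, 19, 39 and 17) with all 6 of their markers detected carried Ccl2 at 265, 70.2, 187 and 1042 CPM. These levels rested on 22, 7, 39 and 68 UMIs, and 1 cell held 38 of the 39 UMIs of Ccl2 in EC-Foxc-DKO mouse 1 and 58 of the 68 in EC-Foxc-DKO mouse 2. Of the 92 cells, 12 had a UMI of Ccl2, against 2.12% of endothelial-like and 3.88% of stromal-like cells. The level remained below that of the monocyte/macrophage-like class, by 3.95 ± 0.66 (log2, SE, edgeR adjusted p 1.60e-05). In control mouse 2, a single cell with 15056 UMIs and 10 of the 11 monocyte/macrophage markers held 66 of the 68 UMIs of the 10 genes, and doublet score removed it as well.

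Epithelial cells carried 2 of these genes at a low level, and mostly in 1 cell type. In cells with markers of goblet and Paneth cells (32, 4, 48 and 43 cells), Ccl6 stood at 267, 348, 245 and 305 CPM and Ccl9 at 108, 397, 23.9 and 69.4 CPM. These cells held 617 of the 695 Ccl6 UMIs of the epithelial-like class, and 44.1% of them had a UMI of it (exact binomial interval 35.3% to 53.2%). The level of Ccl6 was similar in the 4 mice, although 1 cell of EC-Foxc-DKO mouse 2 held 171 Ccl6 UMIs and control mouse 2 had only 4 such cells. The level of Ccl9 ranged widely and rested on 1 cell in control mouse 2. Among the unnamed cells, a cluster of 227 cells led by hemoglobin genes, with 8 of the 11 monocyte/macrophage markers detected and a median of only 1082 UMIs, held 70 UMIs of Ccl8, of which 65 came from EC-Foxc-DKO mouse 1.

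The monocyte/macrophage-like class was not uniform. Clustered again without CC genes, it fell into 5 subclusters, of which 2 could be named from markers. The monocyte-like subcluster (43, 4, 49 and 9 cells) was led by Ly6c2, the surface marker of classical monocytes, with 4 of 9 monocyte markers detected, and the macrophage-like subcluster (1, 29, 15 and 10 cells) had all 10 macrophage markers detected, among them the complement genes C1qa, C1qb and C1qc. The monocyte-like name was less secure, since it was lost without doublets by score and at resolution 1.0, where 3 of its 9 markers were detected. In control mouse 2 the 4 monocyte-like cells held no Ly6c2 UMI. The 3 others are called by their leading genes, the Ppbp/Ednrb subcluster (21, 3, 27 and 14 cells), the Il6/Ramp3 subcluster (1, 0, 1 and 48 cells) and the Marco/Schip1 subcluster (4, 0, 1 and 14 cells). Subclusters were thus spread unevenly over the mice, with 29 of the 36 cells of control mouse 2 macrophage-like and 48 of the 95 from EC-Foxc-DKO mouse 2 in the Il6/Ramp3 subcluster.

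**Figure D3:**
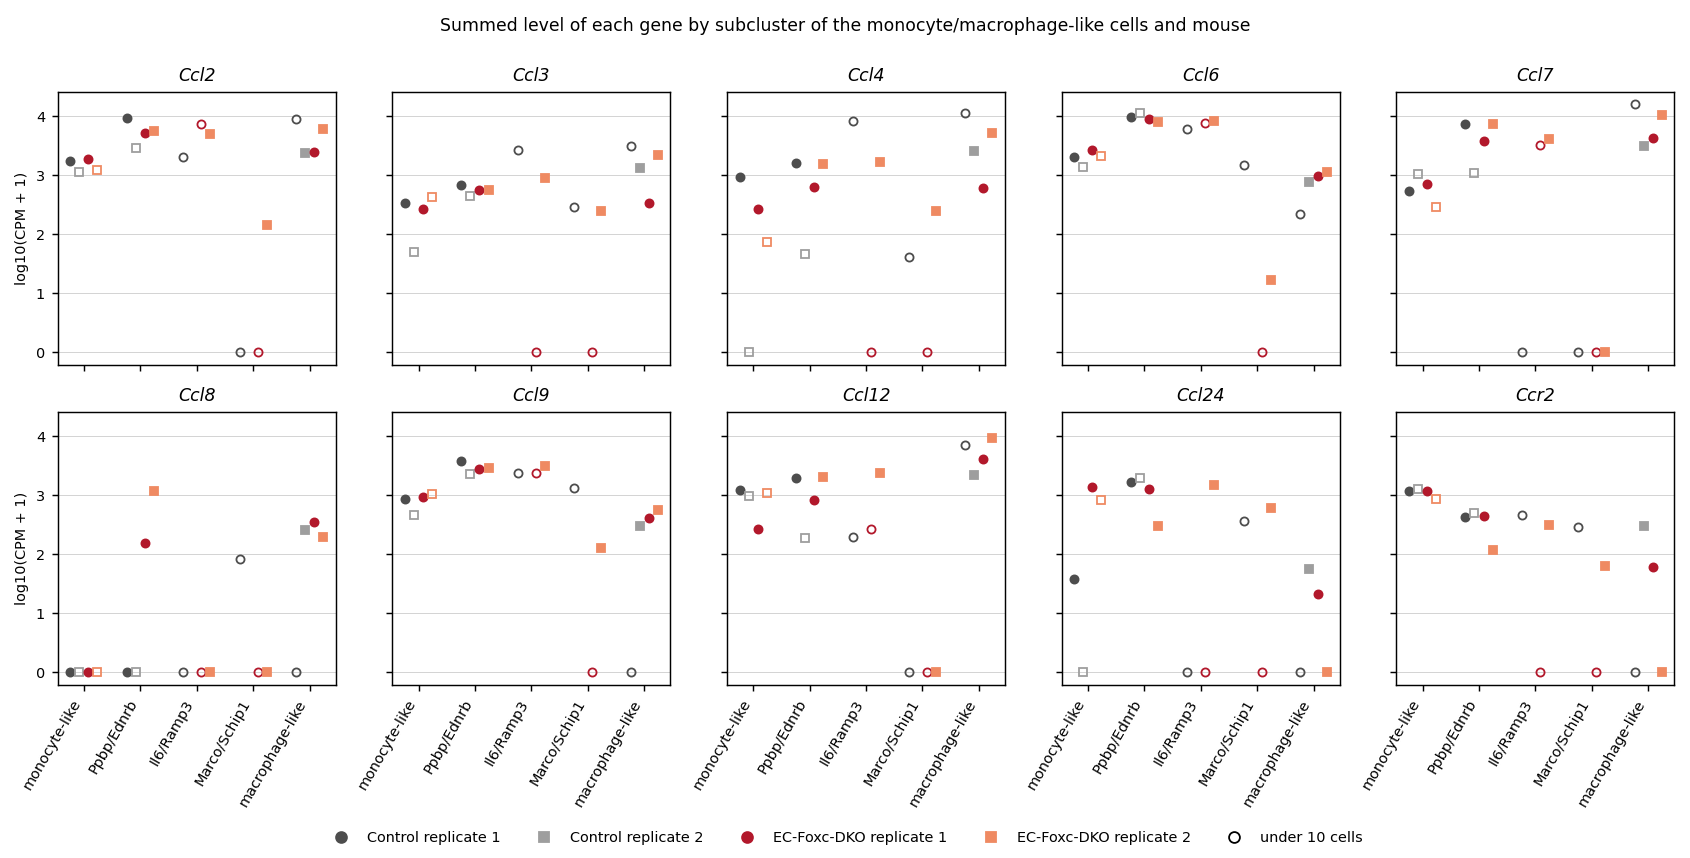
Level of each gene, as log10(CPM + 1) on the y axis, in the 5 subclusters of the monocyte/macrophage-like class on the x axis, with 1 symbol a mouse and open symbols for sums of under 10 cells. Ccr2 lies higher in monocyte-like than in macrophage-like cells, Ccl7 and Ccl12 lie lower, and Ccl8 is at 0 in all 4 monocyte-like sums. Ccl24 lies higher in monocyte-like cells except in control mouse 2, where the order is reversed.

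Between the named subclusters, the receptor Ccr2 was higher in monocyte-like cells, and its ligands Ccl2, Ccl7 and Ccl12 were higher in macrophage-like cells. Monocyte-like and macrophage-like cells held 2120 and 1439 of the 11587 Ccl2 UMIs of the class, and 753 and 2203 of the 9415 of Ccl7. Most UMIs of Ccl2 and Ccl7 thus lay in the other subclusters. Ccr2 stood at 1189.7, 1292, 1196 and 881 CPM in monocyte-like cells and at 0, 306, 59.7 and 0 CPM in macrophage-like cells, without overlap. A UMI of Ccr2 was found in 101 of 105 monocyte-like cells (96.2%) and in 9 of 55 macrophage-like cells (16.4%, exact binomial interval 7.77% to 28.8%). The ligand Ccl7 stood at 547, 1072, 711 and 288 CPM in monocyte-like and at 16236, 3119.9, 4244 and 10583 CPM in macrophage-like cells, and Ccl12 at 1232, 975, 267 and 1097 against 7035, 2229.6, 4218 and 9468 CPM. For both ligands each macrophage-like value lay above each monocyte-like value. Ccl2 stood at 1769, 1121, 1887 and 1241 CPM in monocyte-like and at 9200.1, 2412, 2520.0 and 6119.9 CPM in macrophage-like cells, again without overlap. The macrophage-like values of control mouse 1 come from 1 cell, and the monocyte-like values of control mouse 2 from 4 cells. The share of all genes without overlap between the subclusters was not determined, so that a lack of overlap does not set a gene apart. Ccl8 had 0 UMIs in all 105 monocyte-like cells, which limits the share of cells with a captured UMI, though not of cells expressing the gene, to 2.86%, and stood at 0, 259, 358 and 192 CPM in macrophage-like cells, of which 40.0% held a UMI, so that it was at least 110.2-fold higher there over the summed counts.

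The other ligands were divided in turn. Ccl6 stood at 2089.7, 1365, 2687 and 2122 CPM in monocyte-like and at 216, 782, 995 and 1133 CPM in macrophage-like cells, and Ccl9 at 875, 463, 931 and 1061 against 0, 298, 405 and 558 CPM. Ccl6 did not overlap between the subclusters, whereas the Ccl9 value of EC-Foxc-DKO mouse 2 in macrophage-like cells lay above the lowest monocyte-like one. Ccl3 and Ccl4 went the other way, with Ccl3 at 343, 48.7, 270.1 and 432 CPM in monocyte-like and at 3139, 1320.0, 338 and 2249 CPM in macrophage-like cells, and Ccl4 at 936, 0, 272 and 71.9 against 11473, 2613, 617 and 5161 CPM. The lowest macrophage-like value of both, in EC-Foxc-DKO mouse 1, lay inside the monocyte-like range. Ccl24 stood at 36.5, 0, 1382 and 845.3 CPM in monocyte-like and at 0, 54.2, 19.9 and 0 CPM in macrophage-like cells. The subclusters overlapped, since the macrophage-like value of control mouse 2 lay above the monocyte-like values of both control mice. In monocyte-like cells its level was higher in both EC-Foxc-DKO mice. This rested on few cells, since 1 cell held 229 of the 793 UMIs of EC-Foxc-DKO mouse 1 and 1 of 9 cells held 40 of the 47 of EC-Foxc-DKO mouse 2, while control mouse 2 had only 4 cells. In the Ppbp/Ednrb subcluster Ccl24 ran the other way, at 1707, 1966, 1306 and 305 CPM in the 4 mice, and neither difference was tested. In EC-Foxc-DKO mouse 2, monocyte-like cells held only 47 of the 664 Ccl24 UMIs of all kept cells. The class level of that mouse exceeded the level in its monocyte-like, macrophage-like and Ppbp/Ednrb cells. It thus rested also on the Il6/Ramp3 and Marco/Schip1 subclusters, most of whose cells came from that mouse.

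In the edgeR fit with the mouse as a block, 9 of the 10 genes differed between monocyte-like and macrophage-like cells, 4 of them higher in monocyte-like cells, where 2.74% of the 6542 genes tested were higher, and 5 of them lower, where 2.49% were. Higher in monocyte-like cells were Ccr2 by 4.59 ± 0.44 (log2, SE, adjusted p 4.57e-07), Ccl24 by 5.45 ± 1.27 (adjusted p 0.0103), Ccl6 by 1.32 ± 0.21 (adjusted p 0.000261) and Ccl9 by 1.03 ± 0.26 (adjusted p 0.0187). Lower were Ccl12 at -3.45 ± 0.27 (adjusted p 2.99e-08), Ccl7 at -2.97 ± 0.27 (adjusted p 2.05e-07), Ccl4 at -1.54 ± 0.33 (adjusted p 0.00481), Ccl2 at -0.97 ± 0.28 (adjusted p 0.0447) and Ccl8 (adjusted p 0.00118). With 0 UMIs in monocyte-like cells, Ccl8 passed the filter on low counts through other subclusters alone. Its direction, and its place among the calls, are therefore no separate result. Ccl3, at -1.18 ± 0.44, did not pass (adjusted p 0.151). Only sums of at least 10 cells entered, and EC-Foxc-DKO mouse 1 alone had both subclusters at that size, so that the difference was fitted within it and through the Ppbp/Ednrb subcluster of 3 mice. DESeq2 called 4 of the 10 genes in this contrast, namely Ccl7 and Ccl12 as lower and Ccl6 and Ccr2 as higher, and without EC-Foxc-DKO mouse 2 the edgeR adjusted p of Ccl2 was 0.0554. Across 9 alternatives Ccl2 stayed lower (-1.34 to -0.56) but kept its call in only 5. Ccl7, Ccl12 and Ccr2 kept theirs in all 9.

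**Figure D4:**
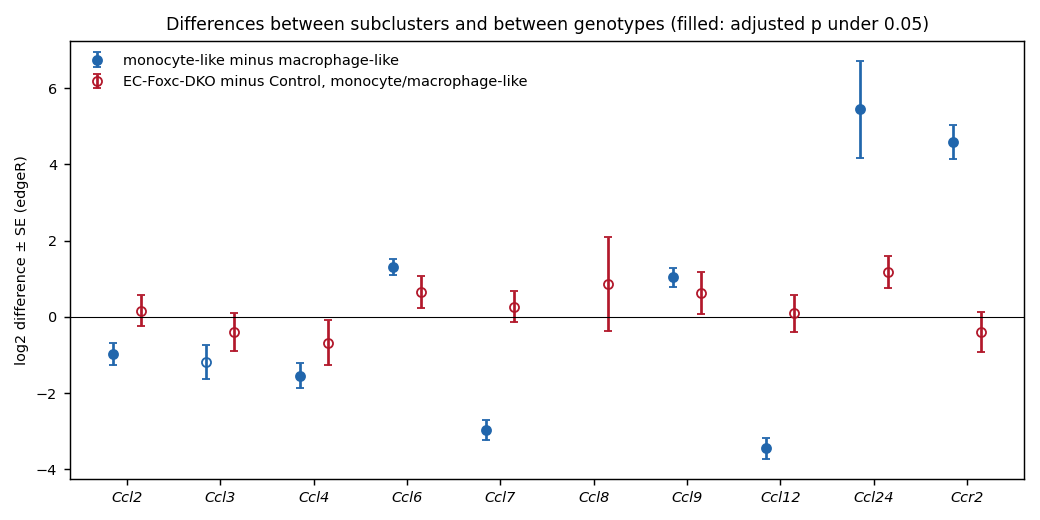
Log2 difference with its SE (y axis, edgeR) for each gene on the x axis, between monocyte-like and macrophage-like cells (blue) and between EC-Foxc-DKO and control mice within the monocyte/macrophage-like class (red), with filled symbols where the adjusted p was under 0.05. The blue points run from -3.45 for Ccl12 to 5.45 for Ccl24, and no red point is filled, while the blue point of Ccl8 is left out because it had 0 UMIs in monocyte-like cells.

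The Ppbp/Ednrb subcluster, which Spp1 also marked, held 6126 of the 11587 Ccl2 UMIs of the class, 8573 of the 14921 of Ccl6 and 2904 of the 5325 of Ccl9. It also held 211 of the 345 Ccl8 UMIs, against 132 in macrophage-like cells, and these came from 8 cells of the EC-Foxc-DKO mice, with 61 and 93 UMIs in single cells. In its 4 sums Ccl2 stood at 9348, 2938, 5297 and 5691 CPM, Ccl6 at 9624, 11590.0, 9111 and 8189.6 CPM and Ccl9 at 3786, 2267, 2839 and 2887 CPM. Ccl6 and Ccl9 were thus higher there in each mouse than in its monocyte-like or macrophage-like cells. The Il6/Ramp3 subcluster, 48 of whose 50 cells came from EC-Foxc-DKO mouse 2, had Ccl2 at 5117 CPM, Ccl6 at 8457 CPM and Ccl9 at 3151 CPM in that mouse. Ccl8 had 0 UMIs in it, whereas it stood at 1188 CPM in the Ppbp/Ednrb cells of the same mouse. The Marco/Schip1 subcluster, 19 cells, held 0 UMIs of Ccl7 and Ccl12 and 9 UMIs of Ccl2. These 3 subclusters were not tested against the named ones.

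Related genes were read in the same contrast of monocyte-like and macrophage-like cells. Genes outside the CC family took part in the clustering, so that their counts are a description. Of the receptors and scavengers of CC chemokines, 3 of 7 were tested and none was called, with Ccr1, a receptor of Ccl3, Ccl6 and Ccl9, at a log2 difference of 0.05. Other CC chemokines had 2 of 11 tested and none called, with Ccl5 at 2.75 (edgeR adjusted p 0.356). Of genes for monocyte attraction and survival, 3 of 6 were tested, and 2 were lower in monocyte-like cells, the fractalkine receptor Cx3cr1 at -2.55 and the receptor of macrophage colony-stimulating factor, Csf1r, at -1.22. Cx3cr1 is also among the markers that named the macrophage-like subcluster, so that its call is no separate result. Of 11 tested genes that induce or restrain inflammatory transcription, 1 was higher, the cytokine Il1b at 1.93, and 5 were lower. Among the lower ones were Nfkbiz at -2.87, the inhibitor of NF-kappa B Nfkbia at -1.70 and the interferon response factor Irf1 at -2.57. Of 8 tested immediate early and heat shock genes, which tissue handling can raise, Fosb (2.87) and Fos (1.05) were higher and Egr1 (-3.04) was lower, but Fos kept its call in only 4 of 9 alternatives (0.24 to 1.22, adjusted p up to 0.708). The summed level of the 9 genes of that list was 9663, 12916, 8933 and 5719 CPM in monocyte-like and 7144, 12770.1, 9132 and 5946 CPM in macrophage-like cells, and its part in the differences was not tested.

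Between genotypes, no gene was called in the monocyte/macrophage-like class. By edgeR 0 of 6861 genes passed (0% of the genes tested), with 152 at an unadjusted p under 0.05, and DESeq2 called 0 genes, with 72 at an unadjusted p under 0.05. For all 10 genes the edgeR adjusted p was 0.99994, and their median log2 difference of EC-Foxc-DKO to control mice was 0.21. The largest differences were those of Ccl24, at 480.5 ± 250.2 TMM-normalized CPM in control and 1092 ± 88.9 in EC-Foxc-DKO mice (mean ± SD, n = 2 mice each), 1.18 ± 0.42 on the log2 scale (SE, unadjusted edgeR p 0.0236), and of Ccl8, at 0.87 ± 1.23. Ccl6 and Ccl9 differed by 0.65 ± 0.43 and 0.64 ± 0.55, Ccl7 by 0.26 ± 0.41, Ccl2 by 0.16 ± 0.41 and Ccl12 by 0.09 ± 0.49. Ccl4 at -0.68 ± 0.59, Ccl3 at -0.40 ± 0.50 and Ccr2 at -0.40 ± 0.52 lay on the other side of 0. After TMM scaling the genotypes overlapped for 9 of the 10 genes, Ccl24 being the exception, and in unscaled CPM those of Ccl6 did not overlap either, by the narrow gap from 4823 to 4905 CPM. The share of all tested genes without overlap was not determined, here or in other classes, so that a lack of overlap does not set a gene apart. With 2 mice a group, the missing calls do not show that the levels were alike.

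**Figure D5:**
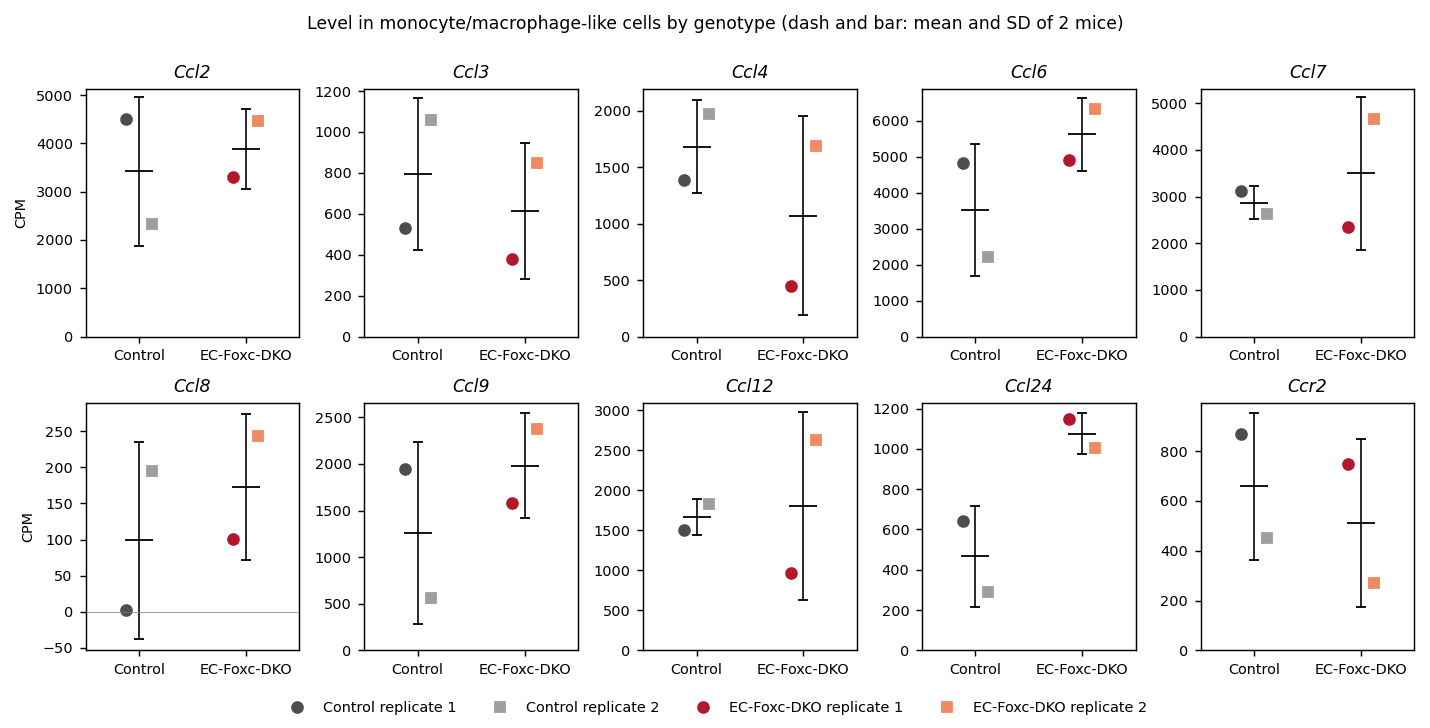
Level of each gene in monocyte/macrophage-like cells (CPM, y axis, starting at 0 or below where the SD bar reaches it) by genotype (x axis), with 1 symbol a mouse and a dash and bar for the mean and SD of 2 mice. Both EC-Foxc-DKO mice lie above both control mice for Ccl24, and narrowly for Ccl6 (4905 against 4823 CPM), and the genotypes overlap for the other genes.

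The make-up of the class moved with the mice in this comparison. The summed level of the macrophage marker list was 8844, 39019, 12982 and 9161 CPM in the monocyte/macrophage-like class of the 4 mice, and that of the monocyte marker list was 5828, 2218, 5003 and 5911 CPM, with Ly6c2 at 0 in control mouse 2. Control mouse 2 was thus the highest for macrophage and the lowest for monocyte markers, as it was lowest for Ccl6, Ccl9 and Ccl24, and the part of this make-up in the genotype values was not tested. Among markers of other cells, a neutrophil list stood at 140, 342, 192 and 313 CPM and an enterocyte list at 1637, 432, 1678 and 1258 CPM. Of the 5 lists of related genes, 3 receptors and scavengers, 1 other CC chemokine, 3 genes of attraction and survival, 10 inflammatory and 8 immediate early or heat shock genes were tested between genotypes in this class, and edgeR called none, at median log2 differences of 0.03, 0.02, -0.61, -0.08 and -0.50 against 0.21 for the 10 genes and 0.0064 for all genes tested. With control mouse 1 left out, the log2 differences of Ccl9 and Ccl24 were 1.80 and 1.89, and with control mouse 2 left out that of Ccl8 was 6.13. In both cases 1 control mouse remained and was assumed to vary like the other mice. The mitochondrial limit also fell unequally, since the removed barcodes held 4.99%, 31.2%, 5.21% and 40.3% of the 10 genes' UMIs in the 4 mice.

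Outside this class the genotype was tested in 5 others, and none of the tested genes among the 10 was called by edgeR. In T/NK-like cells, where 1 of 5221 genes was called (0.0192%), Ccl3 was at -1.11 ± 0.41 (log2, SE, unadjusted edgeR p 0.0185) and Ccl4 at -0.90 ± 0.32 (unadjusted p 0.0158), both with an adjusted p of 0.999. Control mouse 1 was the highest for both, while control mouse 2 lay within the EC-Foxc-DKO values for Ccl3 and just above them for Ccl4. In B/plasma-like cells, where 0% of 5226 genes were called, Ccl4 stood at 33.0, 60.7, 15.9 and 2.13 CPM, a log2 difference of -2.20 ± 0.75 (edgeR adjusted p 0.9996). Only Ccl4 of the 10 genes was tested there, and it passed the filter on low counts through the control mice alone. Its direction and its lack of overlap are therefore no separate result. The level also rested on few cells, since 15 of the 16 UMIs of the 10 genes in control mouse 2 came from 1 cell. In glia-like cells (0% of 1644 genes), the log2 difference of Ccl2 was 1.78 ± 0.82 (edgeR adjusted p 0.9998), and its reliance on 1 cell in each EC-Foxc-DKO mouse is given above. Epithelial-like cells (0% of 12347 genes) had 4 of the 10 genes tested, and endothelial-like cells (0% of 4131 genes) had none that passed the filter on low counts. In these 5 classes 38 to 189 genes had an unadjusted p under 0.05, and DESeq2 called 0 to 9 genes.

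Over all kept cells of a mouse, fewer cells of a type and less RNA per cell cannot be told apart. By edgeR 0 of 14916 genes were called (0%), with 54 at an unadjusted p under 0.05, and DESeq2 called 7 genes, 0 of them among the 10. Ccl2 stood at 134, 207, 145 and 127 CPM over all kept cells, Ccl7 at 92.2, 234, 102 and 129 CPM, and Ccr2 at 26.6, 48.0, 35.7 and 8.55 CPM. Control mouse 2, in which 10.3% of the kept cells were monocyte/macrophage-like against 3.39% to 8.80% in the other mice, was the highest for these 3 genes.

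For each gene the most similar patterns were sought among 12605 other genes, by Pearson's r of log2(CPM + 1) over 25 sums of at least 20 cells from 8 classes. The sums share libraries and classes, so that r is a description. Ccl2 and Ccl7 ran closest to Fcgr1 (r 0.95 and 0.97) and Slamf8 (0.92 and 0.98), Ccl12 to F13a1 (0.98), Ccl6 to Msr1 (0.96), Ccl9 and Ccl24 to Arg1 (0.96 and 0.99), Ccl8 to Mgl2 (0.92) and Ccr2 to Spp1 (0.90). Ccl3 was nearest to Lilrb4a (0.96) and Ccl4 to Itgax (0.92). Among the 10 genes themselves, Ccl9 and Ccl24 were the most alike (0.97), followed by Ccl2 and Ccl7 (0.94) and Ccl7 and Ccl12 (0.93), and Ccl2 and Ccl4 the least alike (0.29).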

How the data were processed

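Small-intestinal cells of 4 mice were measured by droplet 3′ single-cell RNA sequencing. The deposited matrices hold raw UMI counts per gene and barcode, which the authors made with Cell Ranger 4.0.0, per the submitters' processing notes, on mm10 with a Cre sequence added. Samples were grouped by the genotype in their labels. The members and the gene lists were chosen with earlier results of these data known.

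Barcodes with over 10% of UMIs on 13 mitochondrial genes were removed, which left 5615 cells. They were clustered in scanpy 1.11.5 without 46 CC chemokine and CC receptor features, on 2713 variable genes, 15 principal components and 15 neighbours, with Leiden clustering at resolution 0.5. A cluster was named where at least 3 markers and 40% of a list were at least 2-fold higher and in 10% of cells, limits that were set after the clusters were seen. Doublets were kept, since Scrublet's automatic threshold marked only 13 cells, and an alternative removed 292 by score.

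Counts were summed per mouse and class with at least 10 cells and tested with edgeR 4.0.16 (quasi-likelihood test, filterByExpr, TMM, two-sided, p-values adjusted by Benjamini-Hochberg across every gene in the fit) in R 4.3.3. Contrasts between classes and subclusters had the mouse as a block. The same code was tested on simulated data. Of each gene list at most 4 genes past the threshold were named by lowest p, or otherwise at most 2 by highest level. Alternatives were DESeq2 1.42.0, its size factors, no filter, other mitochondrial limits, doublet removal, other clustering, the replicate block and leaving out each mouse. Total UMIs per library ran from 15557181 to 72046346, and intervals are exact binomial (Clopper-Pearson) at 95%. Results that name items withheld for evaluation are not reported here.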

Additional observations from a re-analysis of the deposited data

Results flagged for a closer look

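The barcodes removed for a high mitochondrial share were outside the comparisons, yet they held 16008 of the 80611 UMIs of the 10 genes. In control mouse 1, control mouse 2, EC-Foxc-DKO mouse 1 and EC-Foxc-DKO mouse 2 these were 1035, 2491, 1252 and 11230 UMIs, or 4.99%, 31.2%, 5.21% and 40.3% of the UMIs of the 10 genes in that mouse.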

How the results depend on the processing

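Between genotypes, the calls were few and depended on the setting. Over all kept cells DESeq2 called 7 genes and edgeR without a filter on low counts 14, in place of 0. In the monocyte/macrophage-like class 46 genes were called without the filter, and 4 to 242 with 1 mouse left out, 242 without control mouse 1. Of the 10 genes, 0 to 2 were called there with 1 mouse left out. In the other classes 9 gene and class pairs were called without the filter, of which 6 were endothelial-like values that rest on 1 cell of control mouse 1. In that setting 46 to 105 genes were called in each of these classes, of 12754 to 18999 tested. The replicate block called 2 pairs, Ccl3 in T/NK-like and Ccl4 in B/plasma-like cells, where 18 of 5221 and 38 of 5226 genes were called. As given above, Ccl4 passed the filter in B/plasma-like cells through the control mice alone. Endothelial-like values without control mouse 2 or without EC-Foxc-DKO mouse 1 rest on the same cell. The replicate numbers are not stated to pair the mice. As a check, deviations of log2 CPM from the mean of the genotype were correlated between same-numbered mice. With 2 mice a group, both replicate numbers give the same value. This correlation was -0.497 over all kept cells, -0.225 in the monocyte/macrophage-like, 0.199 in the B/plasma-like and 0.211 in the epithelial-like class. In the other 3 classes it lay between -0.0739 and 0.0069. A crossed pairing, chosen after seeing the data, called 0 genes.

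With 1 mouse left out, the log2 difference between genotypes in the monocyte/macrophage-like class ran from -0.24 to 0.74 for Ccl2, -1.08 to 0.18 for Ccl3, -1.93 to 0.0091 for Ccl4, -0.31 to 0.70 for Ccl7, -0.20 to 6.13 for Ccl8, -0.00083 to 1.80 for Ccl9, -0.79 to 0.66 for Ccl12 and -1.27 to 0.18 for Ccr2, all of which changed sign, whereas Ccl6 (0.19 to 1.34) and Ccl24 (0.71 to 1.89) did not. Ccl12 was also at -0.040 with the mitochondrial limit of 20%, -0.082 with the replicate block and -0.079 with the crossed pairing. In T/NK-like cells the range with 1 mouse left out was -1.93 to -0.29 for Ccl3 and -1.36 to -0.23 for Ccl4. It was -4.59 to -1.51 for Ccl4 in B/plasma-like cells and 0.20 to 2.94 for Ccl2 in glia-like cells.

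Against neutrophil-like cells, Ccl3 turned to 0.20 without the filter, 0.76 without doublets by score, 0.0058 at resolution 1.0, 0.10 with CC genes kept in clustering and 0.068 without the block, and Ccl4 to 0.067 without the filter, 0.30 at the limit of 20%, 0.11 without doublets, 0.074 with CC genes kept and 0.25 without the block. Against T/NK-like cells, Ccl4 was at -0.19 by DESeq2 and between -0.21 and 0.49 with 1 mouse left out. None of these values passed the threshold, and the cause was not tested.

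Between classes, 58 to 65 pairs were called with 1 mouse left out, of 60 or 70 possible. Between monocyte-like and macrophage-like cells, DESeq2 called 4 of the 10 genes and 91 genes in all. Without the mouse as a block, edgeR called 548 genes. With 1 mouse left out, 8 to 9 of the 10 and 338 to 576 genes were called, 576 without EC-Foxc-DKO mouse 2. This contrast could not be fitted without control mouse 1, without EC-Foxc-DKO mouse 1, without doublets by score or at resolution 1.0. Depth limits Ccl8 most, with 423 UMIs in kept cells.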
